A study of Mus musculus with 8 samples.

Results

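The genes described here are 9 that mark resting, or homeostatic, microglia in the mouse brain: *P2ry12*, *P2ry13*, *Gpr34*, *Cx3cr1*, *Slc2a5*, *Tmem119*, *Siglech*, *Olfml3* and *Crybb1*. They were taken by symbol from the 32227 genes of the count tables, and all 9 were found. Their unique molecules (UMIs) were followed in microglia and in other cell types named from marker genes, over 8 libraries of single cells, 1 library per mouse. All mice were male C57Bl/6J, with no other allele named, and the labels give their age as 5 to 6 months, whereas the methods give 3 to 5 months. Each mouse received 1 intraperitoneal injection of saline or of lipopolysaccharide (LPS, an endotoxin of the bacterial cell wall) at 15000000 EU/kg, and brains were taken 24 hours later without perfusion. Brains were dissociated with enzymes, either with DMSO, the vehicle, or with actinomycin D, triptolide and anisomycin, which inhibit transcription and translation, and CD45+ cells were then held back on a magnetic column. Each combination of injection and dissociation was done in 2 mice, which gives 4 groups of 2 libraries, and the labels put replicate 1 of each group in batch 1 and replicate 2 in batch 2.

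Microglia are the resident macrophages of brain tissue, and in the healthy brain they are told from blood-derived macrophages and monocytes by a set of genes that depends on signals of the tissue, TGF-beta among them. Most of these genes code for receptors with which the cell senses its surroundings, and their RNA is known to fall when microglia are activated by endotoxin. *P2ry12* and *P2ry13* are receptors for ADP coupled to inhibitory G proteins, and *P2ry12* steers the processes of microglia toward sites of damage. *Gpr34* is a receptor for lysophosphatidylserine, and *Cx3cr1* is the receptor of fractalkine, a chemokine carried by neurons. *Slc2a5* (GLUT5) carries fructose. *Tmem119* is a membrane protein used as a microglial marker, *Siglech* is a lectin of the Siglec family that signals through the adaptor *Tyrobp*, *Olfml3* is a secreted protein of the olfactomedin family, and *Crybb1* is a beta crystallin, a family best known from the lens.

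The counts of the 8 libraries summed to between 90352359 and 141182123 UMIs. After the limits on cells (800 to under 45000 UMIs, 250 to under 6500 genes and under 5% mitochondrial counts) and the removal of likely doublets, 109271 cells were retained, and 86076 of them were microglia, with 8512 to 12552 in each library. Of the retained cells, 214 carried 1 of 102 barcodes that occurred in more than 1 library. The 10 markers by which microglia were named did not include any of the 9 genes, and the 9 genes were also left out of the clustering. The median microglial cell held 2172 to 3118 UMIs in the saline libraries and 4536 to 5195 in the LPS libraries, so shares of cells are given after thinning each cell to 1500 UMIs. With LPS the summed level of 10 microglial markers within microglia was 23948 to 27339 counts per 1000000 UMIs (CPM) against 51598 to 55017 with saline. That of 9 neutrophil markers was 411 to 578 CPM against 23.4 to 234, with none of the 9 at 0 in any library. Of the 19 marker lists of other cell types, 2 were higher with LPS without overlap of the libraries (the other one being that of plasmacytoid dendritic cells), 13 were lower and 4 overlapped. Among the lower ones the choroid plexus markers summed to 471 to 845 CPM with LPS against 2364 to 9849 with saline, and the B-cell markers to 85.6 to 99.7 against 449 to 543. The mean mitochondrial share of the microglia was 2.50 to 2.93% with LPS and 1.501 to 1.64% with saline. The part of these differences in the results was not tested.

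All 9 genes fell in microglia after LPS, and the loss differed widely among them. *Slc2a5* and *Gpr34* fell the most, 206-fold and 86.9-fold by the fitted change, and had the lowest and the second lowest log2 fold change of the 19897 genes tested. *Crybb1*, *P2ry13*, *P2ry12* and *Olfml3* fell by between 23.4-fold and 13.3-fold. *Tmem119*, *Siglech* and *Cx3cr1* fell the least, by 4.22-fold, 4.002-fold and 3.34-fold. In edgeR's quasi-likelihood test over all genes 9 of 9 were called lower at an adjusted p under 0.05, where 35.5% of all genes were. With a log2 fold change under -2 as well, 8 of 9 were called (all but *Cx3cr1*, with *Siglech* at -2.001), against 4.08% of all genes. For 9 of 9 every LPS library lay below every saline library, which held for 58.8% of all genes. The median log2 fold change of the 9 was -4.05 and that of all genes tested was -0.18. The call at an adjusted p under 0.05 was the same for all 9 in each of 24 alternative settings, fits within each batch and within each *ex vivo* treatment included. The limit of -2 was passed for 6 genes in each of these settings, while *Siglech* (-2.19 to -1.79) and *Tmem119* (-2.32 to -1.78) lay on either side of it.

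**Figure D1:**
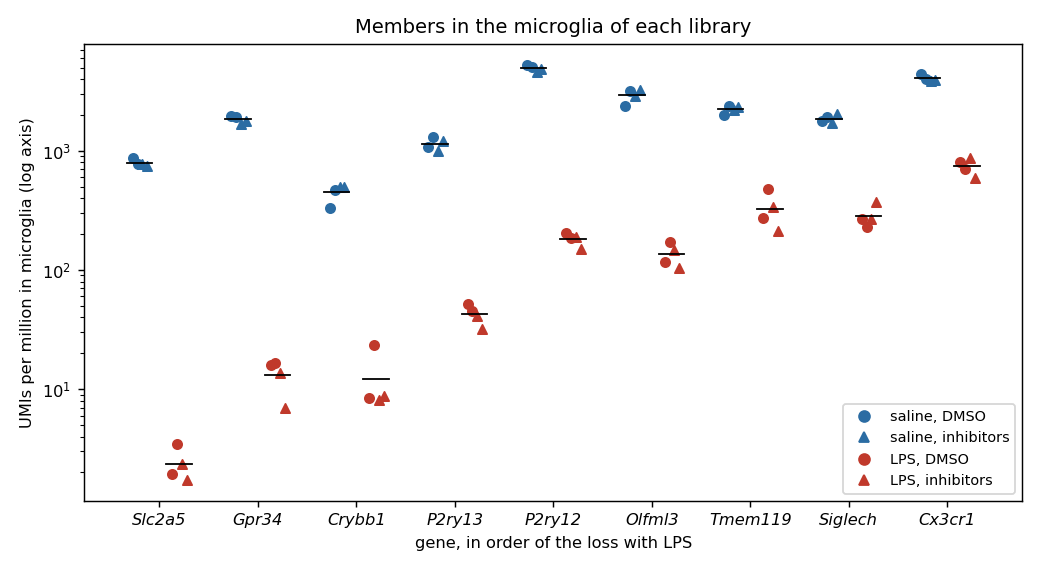
Level of each of the 9 genes in the microglia of each library, in CPM on a log axis, with genes in the order of their loss with LPS. Circles are DMSO and triangles inhibitor libraries, blue is saline and red is LPS, and the bar is the mean of 4 libraries. For every gene the 4 red points lie below the 4 blue points, and the gap narrows from *Slc2a5* (794 against 2.37 CPM) to *Cx3cr1* (4085 against 744 CPM).

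Among the receptors, *P2ry12* stood at 5284 and 5089 CPM in the saline DMSO libraries, 4564 and 4839 in the saline inhibitor libraries, 204 and 185 in the LPS DMSO libraries and 189 and 149.5 in the LPS inhibitor libraries. All 4 LPS libraries were low and close to each other, and there was no overlap between saline and LPS. The mean was 4944 ± 312 CPM over the 4 saline libraries and 182 ± 22.9 over the 4 LPS libraries (SD), with a fitted log2 change of -4.05 (SE 0.18, adjusted p = 1.99e-09), and 59 of the tested genes had a change as low or lower. *P2ry13*, which lies beside *P2ry12* on chromosome 3, stood at 1070.5 and 1318 CPM in the saline DMSO libraries, 999 and 1210.4 in the saline inhibitor libraries, 51.7 and 45.03 in the LPS DMSO libraries and 40.9 and 32.2 in the LPS inhibitor libraries. The LPS libraries again stood far under the saline libraries, with LPS inhibitors replicate 2 the lowest, as for *P2ry12*. The mean was 1149.5 ± 142 CPM over the 4 saline libraries and 42.4 ± 8.15 over the 4 LPS libraries (SD), with a fitted log2 change of -4.06 (SE 0.18, adjusted p = 2.44e-09), so that both ADP receptors kept about the same share of their saline level, 6.04% for *P2ry12* and 5.98% for *P2ry13*.

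*Gpr34*, the lysophosphatidylserine receptor, stood at 1948 and 1925 CPM in the saline DMSO libraries, 1674 and 1793 in the saline inhibitor libraries, 15.8 and 16.7 in the LPS DMSO libraries and 13.5 and 6.99 in the LPS inhibitor libraries. Its saline libraries were within a narrow range, and the lowest value by far was that of LPS inhibitors replicate 2. The mean was 1835 ± 127 CPM over the 4 saline libraries and 13.3 ± 4.39 over the 4 LPS libraries (SD), with a fitted log2 change of -6.44 (SE 0.23, adjusted p = 5.57e-10). *Cx3cr1*, the fractalkine receptor, stood at 4451 and 4049 CPM in the saline DMSO libraries, 3892 and 3948 in the saline inhibitor libraries, 802 and 703 in the LPS DMSO libraries and 877 and 595 in the LPS inhibitor libraries. It was the member that kept most of its level, 29.97% of saline by the fit, although its groups did not overlap either. The mean was 4085 ± 253 CPM over the 4 saline libraries and 744 ± 122 over the 4 LPS libraries (SD), with a fitted log2 change of -1.74 (SE 0.16, adjusted p = 1.28e-06), with 1137 tested genes at a change as low or lower.

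The fructose carrier *Slc2a5* stood at 873 and 772 CPM in the saline DMSO libraries, 778 and 754 in the saline inhibitor libraries, 1.94 and 3.45 in the LPS DMSO libraries and 2.37 and 1.73 in the LPS inhibitor libraries. These LPS levels rest on 123, 145, 129 and 123 UMIs in the microglia of the 4 libraries. The mean was 794 ± 53.5 CPM over the 4 saline libraries and 2.37 ± 0.766 over the 4 LPS libraries (SD), with a fitted log2 change of -7.69 (SE 0.22, adjusted p = 1.30e-10). The levels are scaled by all microglial UMIs of a library, while the fit also scales by TMM, so that the ratio of the 2 means is larger than the fitted 206-fold change.

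Of the surface markers, *Tmem119* stood at 1996 and 2385 CPM in the saline DMSO libraries, 2185 and 2339 in the saline inhibitor libraries, 273 and 483 in the LPS DMSO libraries and 339 and 212 in the LPS inhibitor libraries. Its 4 LPS libraries were spread over more than a doubling, with LPS DMSO replicate 2 the highest, and none reached a saline library. The mean was 2226 ± 176 CPM over the 4 saline libraries and 327 ± 116 over the 4 LPS libraries (SD), with a fitted log2 change of -2.08 (SE 0.23, adjusted p = 4.72e-06). *Siglech* stood at 1786 and 1915 CPM in the saline DMSO libraries, 1726 and 2025 in the saline inhibitor libraries, 266 and 228 in the LPS DMSO libraries and 267 and 371 in the LPS inhibitor libraries. Here LPS inhibitors replicate 2, the lowest library for both ADP receptors, *Gpr34*, *Cx3cr1*, *Slc2a5*, *Tmem119* and *Olfml3*, was the highest of the 4 LPS libraries. The mean was 1863 ± 133 CPM over the 4 saline libraries and 283 ± 61.4 over the 4 LPS libraries (SD), with a fitted log2 change of -2.001 (SE 0.20, adjusted p = 1.96e-06).

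*Olfml3*, the secreted member, stood at 2398 and 3207 CPM in the saline DMSO libraries, 2882 and 3218 in the saline inhibitor libraries, 116 and 173 in the LPS DMSO libraries and 146 and 104 in the LPS inhibitor libraries. Saline DMSO replicate 1 was its lowest saline library and still lay far above every LPS library. The mean was 2926 ± 385 CPM over the 4 saline libraries and 135 ± 30.9 over the 4 LPS libraries (SD), with a fitted log2 change of -3.73 (SE 0.22, adjusted p = 2.30e-08). *Crybb1* stood at 329 and 473 CPM in the saline DMSO libraries, 495 and 501 in the saline inhibitor libraries, 8.43 and 23.3 in the LPS DMSO libraries and 8.11 and 8.70 in the LPS inhibitor libraries. It had 1 saline library apart at the low end, DMSO replicate 1, and 1 LPS library apart at the high end, DMSO replicate 2. The mean was 449.7 ± 81.1 CPM over the 4 saline libraries and 12.1 ± 7.46 over the 4 LPS libraries (SD), with a fitted log2 change of -4.55 (SE 0.36, adjusted p = 2.60e-07), and its standard error was the largest of the 9.

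**Figure D2:**
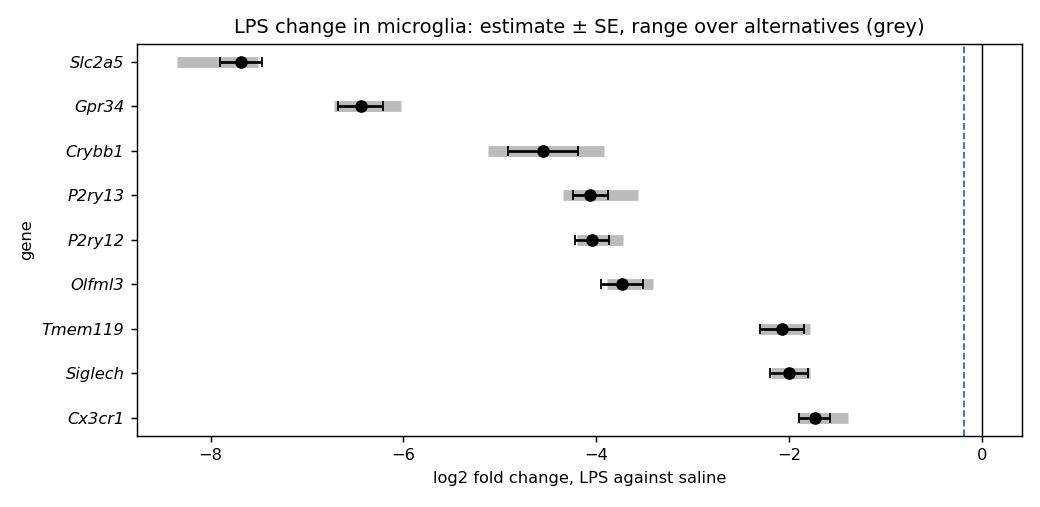
Log2 fold change of LPS against saline in microglia for each gene, as the estimate with its standard error (black), over the range of the estimate in 24 alternative settings (grey). The dashed line is the median of all genes tested, -0.18, and the solid line is no change. All 9 estimates and all 9 ranges lie to the left of the dashed line, from *Slc2a5* at -7.69 to *Cx3cr1* at -1.74.

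The order of loss was compared library by library, with the log2 level of each LPS library set against the mean of the saline libraries with the same *ex vivo* treatment. *Slc2a5* lost more than *Gpr34* in 4 of 4 LPS libraries (mean gap 1.25 log2 units, SD 0.41), and *Gpr34* lost more than *Crybb1* in 4 of 4 (gap 1.83, SD 0.77). *Olfml3* lost more than *Tmem119* in 4 of 4, with a gap of 1.63 (SD 0.16) that parts the 6 strongly lowered genes from the other three. Other neighbors in the order did not differ beyond their spread. *P2ry12* and *P2ry13* had a mean gap of 0.0011 (SD 0.14) and changed places between libraries, and *Tmem119* and *Siglech* did so too (gap 0.091, SD 0.80). *Crybb1* lost more than *P2ry12* in 3 of 4 libraries (gap 0.58, SD 0.90), *P2ry13* more than *Olfml3* in 3 of 4 (gap 0.32, SD 0.32) and *Siglech* more than *Cx3cr1* in 3 of 4 (gap 0.27, SD 0.45). The libraries that broke these orders were not tested for a cause.

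Counted per cell, without any scaling by the other genes, the loss stayed. *P2ry12* went from 13.6 to 0.938 UMIs per cell, *Gpr34* from 5.03 to 0.0678 UMIs per cell and *Slc2a5* from 2.19 to 0.0121 UMIs per cell. *Cx3cr1*, the least lowered member, went from 11.2 to 3.84 UMIs per cell although the LPS microglia held more UMIs in all. With cells as the scale the median log2 fold change of the 9 was -3.84, and that of all genes moved from -0.18 to -0.03. Over all genes the scale turned the balance of calls, from 7056 lower and 6010 higher with TMM to 3685 lower and 5615 higher with UMIs per cell, while the 9 were called lower on both.

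The promoters of the 2 ADP receptors, which fell alike, and of the genes at either end of the loss, *Slc2a5* and *Cx3cr1*, are shown because these 4 carry the order described above. They are the 250 bases before the start in RefSeq (GRCm38.p6, a build other than the one of the counts), 5′ to 3′ on the strand of the gene, in lower case with each AGGAAG in capitals. AGGAAG, searched on both strands, is the core that PU.1 and other ETS factors of myeloid cells recognize. The *P2ry12* window is chr3:59262986-59263235, minus strand, that of *P2ry13* is chr3:59210883-59211132, minus strand, that of *Slc2a5* is chr4:150119094-150119343, plus strand and that of *Cx3cr1* is chr9:120068297-120068546, minus strand.
P2ry12: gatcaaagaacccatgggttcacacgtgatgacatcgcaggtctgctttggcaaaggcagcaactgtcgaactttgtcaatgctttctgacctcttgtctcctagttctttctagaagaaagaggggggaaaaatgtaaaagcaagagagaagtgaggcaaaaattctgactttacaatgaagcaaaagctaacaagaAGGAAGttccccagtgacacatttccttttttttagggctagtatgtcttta
P2ry13: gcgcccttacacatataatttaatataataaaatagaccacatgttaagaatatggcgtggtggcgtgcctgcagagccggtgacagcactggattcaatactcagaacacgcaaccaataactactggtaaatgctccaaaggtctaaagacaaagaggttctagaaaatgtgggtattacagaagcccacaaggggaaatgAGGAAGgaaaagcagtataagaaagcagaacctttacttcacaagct
Slc2a5: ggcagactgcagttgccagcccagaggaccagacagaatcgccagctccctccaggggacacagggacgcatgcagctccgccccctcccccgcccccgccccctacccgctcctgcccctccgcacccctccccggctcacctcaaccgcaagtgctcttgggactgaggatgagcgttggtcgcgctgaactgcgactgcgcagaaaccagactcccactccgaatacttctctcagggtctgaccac
Cx3cr1: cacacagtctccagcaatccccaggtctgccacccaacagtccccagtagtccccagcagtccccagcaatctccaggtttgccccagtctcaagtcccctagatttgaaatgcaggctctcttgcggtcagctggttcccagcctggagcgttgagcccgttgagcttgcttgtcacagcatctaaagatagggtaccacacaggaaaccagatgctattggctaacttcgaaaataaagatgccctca
The table of promoters held 7 of the 9 genes. AGGAAG occurred in 3 of these 7, *P2ry12*, *P2ry13* and *Olfml3*, and in 29.2% of 27025 promoters of the same length. The match lay 52 bases before the start in *P2ry12* and 47 bases before it in *P2ry13*, and the windows of *Slc2a5* and *Cx3cr1* held none. The *Slc2a5* window was 66.4% G and C and held the GC box GGGCGG, found in 2 of 7 members and 32.9% of promoters, whereas the *P2ry12* and *P2ry13* windows were both 41.6% G and C. CAGACA, which holds the core that Smad proteins of the TGF-beta pathway recognize, occurred in 3 of 7 (*Slc2a5*, *Siglech* and *Crybb1*) and in 17.1% of promoters, and the TATA box TATAAA in 1 of 7 (*Crybb1*) and in 12.97%. The AP-1 motif TGANTCA, found in 6.87% of promoters, was in none of the 7 windows. The motif of MEF2 factors was in 1 of 7 (*Cx3cr1*) and in 3.23% of promoters, and that of interferon regulatory factors in 0 of 7 and in 3.04%. Each motif was searched on both strands, and matches of different motifs may overlap.

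The *ex vivo* treatment left the 9 genes without a called change. Between DMSO and inhibitor libraries, with the *in vivo* treatment as a term, 0 of 9 were called in either direction by edgeR, where 0.382% of all genes were (76 genes). None of the 9 had an unadjusted p under 0.05 either. The lowest was that of *Gpr34*, higher with DMSO by 0.39 (SE 0.19, unadjusted p = 0.0589), and the log2 differences ran from -0.24 for *Siglech* to that value. DESeq2 called 0 of 9. In the LPS libraries alone, a fit added after the data were seen, *Gpr34* (0.69), *Crybb1* (0.90) and *P2ry13* had an unadjusted p under 0.05 and none was called. Whether the LPS loss differs between DMSO and inhibitor libraries was tested as an interaction, where 0 of 9 were called against 0.0201% of all genes (4 genes). The largest term of the 9 was that of *Crybb1*, whose loss was smaller with DMSO by 1.20 (SE 0.55, unadjusted p = 0.0505). It ran from 0.27 without LPS DMSO replicate 2, the library with the most *Crybb1* of the LPS arm, to 1.76 without LPS DMSO replicate 1. With the replicate number as a block *Gpr34* had an unadjusted p of 0.0418 in the first comparison and *Crybb1* 0.00662 in the second, and neither passed the adjustment. In the fit of DMSO against inhibitors 12 of 13 immediate-early and heat shock genes known from dissociation were higher with DMSO. That list was chosen with earlier results of these data known. With 0.382% of all genes called, 0 of 9 does not set the members apart from other genes.

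After thinning to 1500 UMIs, nearly every saline microglial cell held *P2ry12* and *Cx3cr1*, and the share fell for all 9 genes with LPS. A UMI of *P2ry12* was found in a share of cells that went from 98.8% ± 0.235 to 23.6% ± 2.47 (SD, n = 4 each), and one of *Cx3cr1* from 98.9% ± 0.257 to 56.96% ± 5.96. The shares of the T-cells of the saline libraries, where *P2ry12* is not expected and *Cx3cr1* is known from some effector cells, were 20.1 to 47.4% and 21.8 to 42.1%, and those of the LPS T-cells were 1.28 to 6.17% and 3.85 to 23.5%. The median T-cell held 2595 to 4497 UMIs with saline and 2007 to 2700 with LPS before thinning. LPS microglia thus stayed above the T-cells of the LPS libraries for both genes.

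For *Gpr34* the share went from 89.9% ± 1.58 to 2.09% ± 0.742, with 9.77 to 32.6% in saline T-cells and none in LPS T-cells. For *P2ry13* it went from 77.6% ± 4.26 to 6.33% ± 0.986, with 7.47 to 22.1% in saline and 0 to 1.28% in LPS T-cells. *Slc2a5* went from 63.3% ± 1.24 to 0.348% ± 0.112, with 4.60 to 14.7% in saline T-cells and none in the 285 LPS T-cells that had 1500 UMIs. *Tmem119* went from 93.3% ± 1.31 to 36.1% ± 9.38, with 10.9 to 36.8% in saline and 1.35 to 8.64% in LPS T-cells, and *Siglech* from 90.5% ± 1.56 to 32.9% ± 5.73, with 15.5 to 28.4% and 0 to 6.17%. *Olfml3* went from 95.9% ± 1.76 to 17.4% ± 3.69, with 16.1 to 30.5% and 0 to 4.94%, and *Crybb1* from 42.1% ± 5.73 to 1.58% ± 0.847, with 5.17 to 7.37% in saline and none in LPS T-cells. For the 6 genes with a UMI in LPS T-cells every LPS microglial library was above every T-cell library of that arm. For *Gpr34*, *Slc2a5* and *Crybb1* a count of 0 in 285 T-cells allows a share with a UMI of up to 1.05%, above the share of *Slc2a5* in LPS microglia. In 9 of 9 the groups did not overlap, which was so for 55.9% of the genes compared. The exact two-sided permutation test gave p = 0.0286 for each, the smallest that 4 against 4 libraries allow. It moved libraries freely between batches and *ex vivo* treatments, and no version within batches was run. Thinning to 800 UMIs or not at all gave the same call for each gene, although without thinning the drop in percentage points was 47.5 in place of 75.2 for *P2ry12* and 20.3 in place of 41.96 for *Cx3cr1*, and between 82.1 and 95.1% of the microglia of a library had the 1500 UMIs needed.

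The loss was seen in nearly all microglia. A saline microglial cell held on average 7.36 to 7.63 of the 9 genes, and 98.5 to 99.001% of cells held 5 or more. An LPS microglial cell held 1.59 to 1.91 of the 9, and 0.746 to 1.97% of cells held 5 or more. None of the 9 was seen in 11.4 to 16.2% of LPS microglia, and in at most 0.0493% of saline microglia. Summed over the 9 genes, 95.6 to 96.9% of the saline microglia had 15 UMIs or more, a limit set at the lowest 5th percentile among the saline libraries. In the LPS libraries 6, 1, 5 and 3 cells reached it, 15 of 41448 in all. In T-cells, by the same count, the mean was 1.11 to 2.62 of 9 with saline and 0.0811 to 0.506 with LPS. Up to 27.4% of the T-cells of a saline library held 5 or more of the 9, and the part of mixed barcodes in that was not tested.

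**Figure D3:**
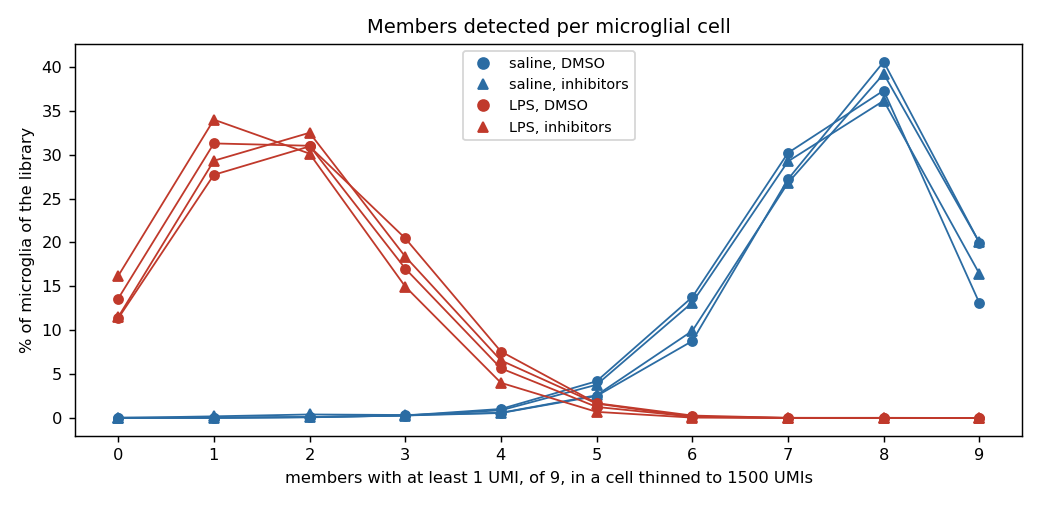
Share of microglia (vertical axis, %) by the number of the 9 genes with at least 1 UMI in a cell thinned to 1500 UMIs (horizontal axis), with 1 line per library. The blue saline lines peak at 8 genes and the red LPS lines at 1 or 2, and the curves cross near 5, where both arms have few cells.

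The spread of each gene over cells was measured as the squared coefficient of variation in excess of counting noise, in cells thinned to 1500 UMIs. It was higher with LPS for 9 of 9 genes without overlap (exact two-sided permutation test, not blocked by batch or *ex vivo* treatment, p = 0.0286 each). This was so for 5.55% of the genes compared, those with a thinned mean of at least 0.01 UMIs per cell in every library. These genes were not matched to the 9 for the fall of their mean, so the rise in spread is not read as particular to the 9. *Slc2a5*, with a mean of 0.00365 in LPS microglia, was not among the genes of that share. For *P2ry12* the spread rose from 0.136 ± 0.0119 to 0.509 ± 0.136 and for *Cx3cr1* from 0.101 ± 0.0135 to 0.597 ± 0.119 (SD, n = 4 each). In the saline libraries *Cx3cr1* was the most even over cells, *Tmem119*, *P2ry12* and *Siglech* followed within 0.135 to 0.138, and *Crybb1* (0.689) and *Slc2a5* (0.364) were the least even. With LPS the spread went from 0.138 ± 0.0155 to 0.390 ± 0.0770 for *Siglech*, the lowest of the 9, from 0.135 ± 0.0117 to 0.528 ± 0.0968 for *Tmem119*, from 0.176 ± 0.0141 to 0.967 ± 0.303 for *Olfml3* and from 0.213 ± 0.0447 to 1.69 ± 0.192 for *P2ry13*. *Gpr34* (8.72 ± 4.85), *Crybb1* (26.4 ± 13.6) and *Slc2a5* (34.4 ± 25.8) had the largest values. Their thinned mean in LPS microglia was 0.0227, 0.0190 and 0.00365 UMIs per cell, so these values rest on sparse counts. Within the clusters described below, the libraries ran from -0.957 to 39.7 for *Slc2a5* in cluster 2. For *Gpr34* in cluster 3 they ran from -0.910 to 22.3. The means over libraries in clusters 2, 3 and 5 were 4.97, 10.7 and 3.88 for *Gpr34*. For *Slc2a5* they were 9.22, 53.2 and 9.89. For *Slc2a5* the difference in spread was not past the threshold at 800 UMIs per cell (exact permutation p = 0.143). Without any 1 of the saline libraries the exact permutation p was 0.0571 for *Gpr34* and *Crybb1* and 0.0857 for *Slc2a5*. Correlations between pairs of the 9 over cells were weak, with a median of 0.084 over 144 pairs and libraries with saline and 0.030 with LPS, and nothing is read from them.

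The microglia fell into 6 clusters, and those of saline and LPS libraries were almost wholly apart although the 9 genes had no part in the clustering. Of 44342 LPS microglia 16 were in clusters 1 and 4, which came from the saline libraries, and of 41734 saline microglia 69 were in clusters 2, 3 and 5, which came from the LPS libraries. Cluster 1 was the main saline cluster. Cluster 4, led by *Hspa1b* and *Egr1*, and cluster 5, led by *Ier2* and *Fos*, came at 98.1% and 99.5% from DMSO libraries when libraries are weighted alike. *P2ry12* stood at 5158 ± 474 CPM in cluster 1 and 4175 ± 1037 in cluster 4, and at 209.7 ± 25.1 in cluster 2 and 206 ± 9.40 in cluster 5 (SD, n = 4 libraries, 2 for cluster 5). For all 9 genes the level in cluster 4 was below that in cluster 1 of the same library in 4 of 4 saline libraries, although the ranges of the 2 clusters over libraries overlapped. The share of all genes lower in cluster 4 was not counted. Cluster 6, led by the interferon genes *Cxcl10* and *Ifit3*, held 315 saline and 540 LPS cells and was the only cluster with both arms in number.

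In the 3 saline libraries with 50 cells or more in the interferon cluster, 8 of the 9 genes were lower there than in cluster 1 of the same library in 3 of 3, and *Crybb1* was lower in 2 of 3. *P2ry12* stood at 2851 ± 645 CPM in cluster 6 and 4988 ± 405 in cluster 1 of these libraries (SD, n = 3), and *Slc2a5* at 448 ± 117 CPM and 798 ± 36.8, without overlap between libraries for either. *Crybb1* stood at 487 ± 97.00 CPM and 504 ± 8.05. In the LPS libraries the same cluster had 162 ± 18.5 CPM of *P2ry12* and 2.53 ± 2.20 of *Slc2a5*. Of the LPS clusters, cluster 3, led by *Acod1* and *Marco*, was lower than cluster 2, led by *Il1r2* and *Spp1*, within 4 of 4 libraries for 8 of the 9 genes, and for 4 of these the libraries did not overlap. The levels were 102 to 137 against 184 to 236 CPM for *P2ry12* and 22.8 to 32.4 against 41.99 to 59.9 for *P2ry13*. They were 5.05 to 8.83 against 8.88 to 18.6 for *Gpr34* and 1.23 to 1.77 against 1.90 to 4.12 for *Slc2a5*. *Tmem119*, *Siglech*, *Olfml3* and *Crybb1* were lower in cluster 3 within each library over ranges that overlapped, by the least for *Olfml3*, at 123 ± 24.9 CPM against 129.96 ± 31.1. *Cx3cr1* went the other way, higher in cluster 3 within 4 of 4 libraries, at 761 ± 117 CPM against 689.9 ± 126. The median cell of cluster 3 held 5543 UMIs and that of cluster 2 held 4421. These cluster levels are descriptions, with no test. The share of all genes that were lower between the same clusters was not counted, so the counts of members have no background beside them.

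**Figure D4:**
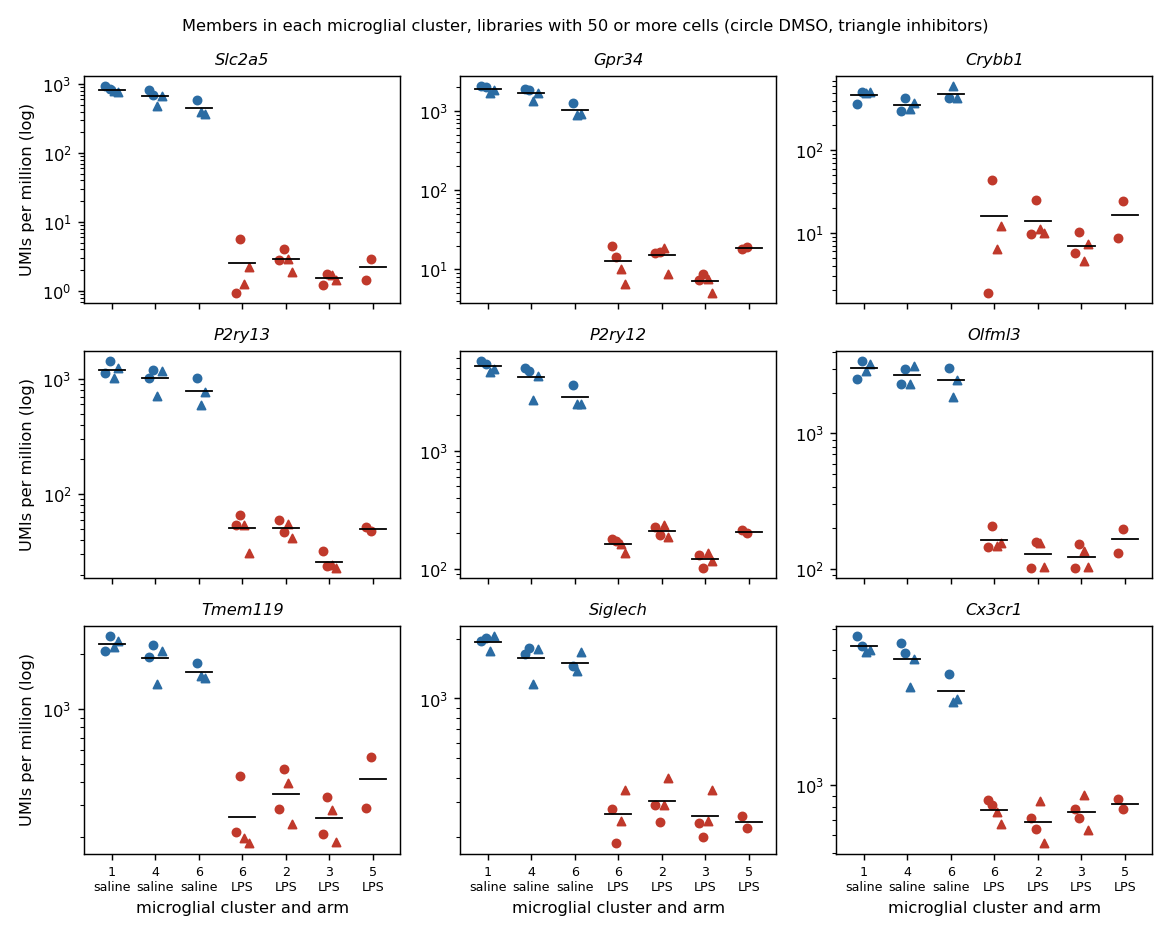
Level of each gene (CPM, log axis) in each microglial cluster, split by saline (blue) and LPS (red), with 1 point per library of at least 50 cells and a bar at the mean. The saline clusters 1, 4 and 6 stand together at the left and the LPS clusters 6, 2, 3 and 5 at the right, with a gap between them for every gene.

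RNA outside of cells was taken from barcodes with 1 to 99 UMIs, which held 15.5 to 33.7% of the UMIs of a library, and the 9 genes were found there too. In the saline libraries the free RNA held *P2ry12* at 2575 to 3211 CPM, and the level in microglia was 0.971 to 2.36 times that in the free RNA over the 9 genes. In the LPS libraries the free RNA held *P2ry12* at 155 and 498 CPM with DMSO and 139.5 and 171 with inhibitors. LPS DMSO replicate 2 stood apart from the rest, at 135 CPM of *Gpr34* and 93.7 CPM of *Slc2a5* against at most 19.8 and 13.9 in the other three. For *Slc2a5* the microglia of all 4 LPS libraries stood below the free RNA of their own library, at 0.547, 0.0368, 0.290 and 0.124 times its level. So did those for *Crybb1*, at 0.990, 0.430, 0.774 and 0.635 times, while *Gpr34* was at 1.70, 0.124, 0.899 and 0.353 times. In LPS DMSO replicate 2 every one of the 9 genes was below the free RNA, at 0.0368 to 0.826 times its level. The share of all genes below the free RNA in that library was not counted. In the other LPS libraries the 9 genes ran from 0.124 to 1.70 times. Free RNA was estimated to make up 2.86 to 5.64% of the microglial UMIs. In LPS DMSO replicate 2 this would give 2.68 CPM of *Slc2a5*, and 3.45 CPM were observed. In the other LPS libraries the observed level of *Slc2a5* was 11.1, 9.87 and 3.53 times the estimate. For the other 8 genes the observed level was at least 4.33 times the estimate in every LPS library. With the estimate subtracted, 9 of 9 stayed called lower in microglia.

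In the saline libraries the level of all 9 genes was highest in microglia, and every saline microglial library was above every library of the other cell types compared. The 9 were chosen as genes that mark microglia, and the share of all genes with this order was not counted in either arm. Dendritic cells, leptomeningeal cells, mast cells or basophils, oligodendrocytes and pericytes or smooth muscle cells were not compared. *P2ry12* stood at 4944 ± 312 CPM in microglia, 719 ± 319 in T-cells, 579 ± 389 in neutrophils, 540.1 ± 529 in natural killer (NK) cells, 484 ± 63.2 in macrophages, 319 ± 49.2 in monocytes, 299.9 ± 73.3 in B-cells, 232 ± 122 in choroid plexus cells and 201 ± 62.4 in endothelial cells (SD, n = 4 each). After microglia, neighbors in this order overlapped, except that every macrophage library was above every monocyte library. T-cells held *P2ry12* at 389.7 to 1136 CPM and *Slc2a5* at 51.2 to 164 CPM. In saline T-cells the ratio of each gene to free RNA, over the median ratio of the 9, lay between 0.602 (*Crybb1*) and 1.35 (*Gpr34*). In saline microglia it lay between 0.595 (*Crybb1*) and 1.14 (*Olfml3*), so that free RNA and barcodes mixed with microglia cannot be told apart by this ratio. Saline macrophages held more *Cx3cr1* and *P2ry13* than the free RNA carries beside the other members. *Cx3cr1* stood there at 1072 and 955 CPM in the saline DMSO libraries and 786 and 878 in the saline inhibitor libraries, with a ratio of 1.88 to 2.26 over the median of the 9. *P2ry13* stood at 260.0 and 242 CPM in the saline DMSO libraries and 194 and 249 in the saline inhibitor libraries, with a ratio of 1.72 to 2.25. The ratio was above 1 in saline macrophages also for *Gpr34* (1.32 to 1.55) and *Olfml3* (1.03 to 1.36). When each cell was named from the marker lists alone (3 or more markers with at least 0.3% of its UMIs, and microglia only where no other list passed), 691 of 3355 saline macrophages were named microglia. Cluster 11, which holds 1310 of the saline macrophages, had 7 of 8 macrophage and 8 of 10 microglial markers. Among the macrophages named from markers the ratio was 1.79 to 2.31 for *Cx3cr1* and 2.28 to 2.44 for *P2ry13*. Monocytes had such a ratio for *Cx3cr1* (1.79 to 2.23) and not for *P2ry13* (1.03 to 1.33).

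Outside microglia, the mean of the saline libraries ran over the 8 other cell types from 43.8 ± 12.3 CPM in endothelial cells to 236 ± 29.2 in macrophages for *P2ry13*, from 72.7 ± 25.6 CPM in endothelial cells to 276 ± 165 in T-cells for *Gpr34* and from 210.0 ± 54.99 CPM in endothelial cells to 923 ± 121 in macrophages for *Cx3cr1*. The type at the top was the macrophage for *P2ry13* and *Cx3cr1* and the T-cell for *Gpr34*, with macrophages next to it. For *Slc2a5* the means ran from 32.3 ± 11.8 CPM in endothelial cells to 110.1 ± 46.6 in T-cells, for *Tmem119* from 90.8 ± 27.4 CPM in endothelial cells to 391 ± 266 in neutrophils and for *Siglech* from 64.3 ± 27.6 CPM in endothelial cells to 273 ± 102 in T-cells. Endothelial cells stood at the bottom for every one of them. For *Olfml3* the means ran from 99.02 ± 34.4 CPM in endothelial cells to 405 ± 135 in T-cells and for *Crybb1* from 25.1 ± 7.34 CPM in endothelial cells to 65.1 ± 20.7 in T-cells. In each of these orders neighboring cell types overlapped.

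With LPS microglia were no longer first in the order of mean levels for 3 of the 9 genes, *P2ry13*, *Gpr34* and *Slc2a5*. *P2ry13* was highest in neutrophils, at 80.8 and 73.7 CPM in the LPS DMSO libraries and 98.7 and 59.6 in the LPS inhibitor libraries, and every one of these values lay above every LPS microglial library. Its ratio to free RNA over the median of the 9 was 9.16 to 17.98 in LPS neutrophils. In LPS macrophages *P2ry13* stood at 50.2 and 51.9 CPM in the LPS DMSO libraries and 52.1 and 33.3 in the LPS inhibitor libraries, which overlapped the 32.2 to 51.7 CPM of LPS microglia, with a ratio of 3.72 to 10.7. In LPS monocytes the ratio was 3.95 to 6.44 at 16.1 to 31.4 CPM. In the T-cells of the LPS libraries, on 9 UMIs in all, that of *P2ry13* was 0 to 1.58. Other members reached 4.68 (*Tmem119*) in LPS T-cells and 27.4 (*Crybb1*) in LPS NK cells, the latter on 7 UMIs, so that the ratio varied widely in the LPS arm also in cells other than the myeloid ones. The ratios of *P2ry13*, which rest on 227 UMIs in neutrophils, 325 in macrophages and 373 in monocytes, are descriptions. They lie within the range of the other members in NK cells. That range rests on few UMIs (7 of *Crybb1* and 8 of *Gpr34*), so nothing is read from it. At 1500 UMIs per cell *P2ry13* was seen in 6.59 to 14.4% of LPS neutrophils, 4.41 to 7.44% of LPS macrophages and 5.14 to 7.52% of LPS microglia. In LPS T-cells the share was at most 1.28%, and the median LPS neutrophil held 1348 to 1599 UMIs. In contrast *Cx3cr1*, *Tmem119*, *Siglech* and *Olfml3* stood higher in every LPS microglial library than in any other cell type compared in the LPS libraries. *P2ry12* and *Crybb1* had their highest mean in LPS microglia, but 1 library of choroid plexus cells (up to 202 CPM of *P2ry12* and 14.98 CPM of *Crybb1*) and the NK cells (8.54 ± 10.1 CPM of *Crybb1*) overlapped with it. *Cx3cr1* stood at 744 ± 122 CPM in LPS microglia and 72.1 ± 9.003 in LPS macrophages, next to 73.96 ± 15.1 in monocytes. *Gpr34* had its highest mean in choroid plexus cells (14.8 ± 21.4 CPM, from 1.83 to 46.8 over libraries), next to 13.3 ± 4.39 in microglia. At 6.99 to 16.7 CPM it was higher in every LPS microglial library than in any library of monocytes (0.595 to 5.62), neutrophils (0.903 to 3.01) or T-cells (0 to 6.69), and overlapped the other 5 types. *Slc2a5* had a higher mean in 4 other types than in microglia, with choroid plexus cells first (7.49 ± 14.98 CPM, an SD above the mean). At 1.73 to 3.45 CPM microglia were above T-cells, where no UMI was seen, and overlapped the other 7 types. The lead of choroid plexus cells for *Gpr34* and *Slc2a5* is not read as a difference between the types.

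**Figure D5:**
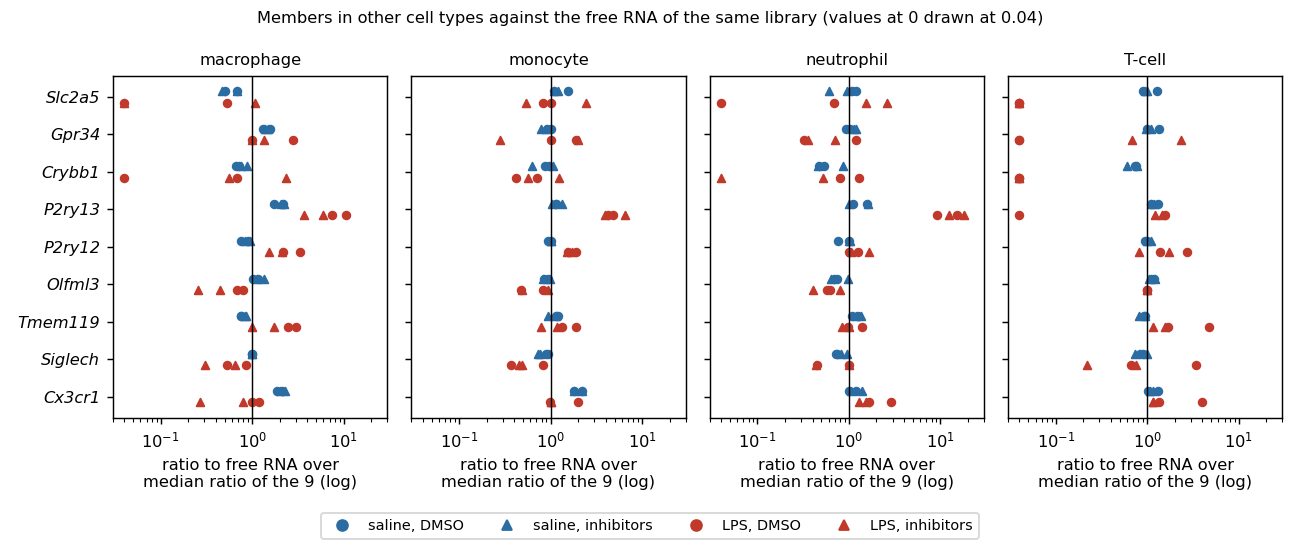
Ratio of each gene in 4 other cell types to the free RNA of the same library, divided by the median ratio of the 9 genes in that cell type and library (log axis), with 1 point per library and values at 0 drawn at 0.04. Points on the vertical line at 1 have the mix of the free RNA. *P2ry13* lies to the right of the line in LPS neutrophils (9.16 to 17.98), LPS macrophages and LPS monocytes, and *Cx3cr1* in saline macrophages and monocytes, while the saline points of the T-cells gather around 1.

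The same LPS test in the other cell types called most of the 9 genes lower wherever they could be tested. It called 9 of 9 in macrophages (26.6% of all genes tested there), 9 of 9 in monocytes (15.4%) and 8 of 9 in neutrophils (8.46%). The exception in neutrophils was *P2ry13*, at -0.70 (SE 0.28, adjusted p = 0.0953). It also called 9 of 9 in T-cells (8.52%), 7 of the 8 tested in B-cells (5.33%, all but *Siglech*) and 6 of the 6 tested in NK cells (10.1%). Outside the immune cells it called 8 of 9 in endothelial cells (21.3%, all but *Cx3cr1*) and 8 of the 8 tested in choroid plexus cells (13.3%). *Slc2a5* and *Crybb1* had no UMI in the 342 T-cells of the LPS libraries, which allows a share of cells with a UMI of up to 0.877%. *Crybb1* had none in the 197 B-cells, which allows a share of cells with a UMI of up to 1.52%. Both limits cover counting error at this depth and set no limit on the share of cells that express the gene. The free RNA of the same libraries also held less of all 9 genes with LPS. With the free RNA estimate subtracted, 9 of 9 stayed called in macrophages and in monocytes, and in T-cells, B-cells, NK, endothelial and choroid plexus cells its part was not tested. In neutrophils none of the 8 calls was lost in 11 alternative settings (10 for *Crybb1*).

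These classes did not hold the same clusters in both arms, apart from T-cells and NK cells, which were 1 cluster each, and B-cells, of which 1 cluster held 93.4% and 96.4%. Of the 1048 saline monocytes 539 were in cluster 21, led by *Adgre4* and *S1pr5*, and 368 in cluster 26, with *Fn1* among its leading genes. Of the 4821 LPS monocytes 5 and 1 were in these, and 4307 were in cluster 7, led by *S100a4* and *Pla2g7*. Saline macrophages were in clusters 9, 11 and 27 (1690, 1310 and 352 of 3355 cells) and LPS macrophages in clusters 8 and 16 (2043 and 736 of 2780). Neutrophils were mainly in cluster 24 with saline (429 of 541) and in cluster 10 with LPS (1487 of 1527). Endothelial cells were mainly in cluster 14 with saline and 19 with LPS, and choroid plexus cells in 15 and 25. Within these classes a lower level in a cell and another make-up of the class cannot be told apart.

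The loss in macrophages and monocytes was then compared with that in microglia of the same mice, in 1 fit with the mouse as a block. The clusters that make up both classes differ between the arms, as given above, so these differences are between classes as named and not between the same clusters. Named from the marker lists alone, 691 of 3355 saline and 1335 of 2780 LPS macrophages passed only the microglial list, as did 433 of 1048 saline and 1454 of 4821 LPS monocytes. The comparison was therefore repeated with the classes named in that way, an alternative chosen after the data were seen. In macrophages 8 of 9 genes were called in either direction, against 31.3% of all genes. Of these 5 lost less than in microglia, where 8.57% of all genes were called in that direction. The log2 difference, macrophages minus microglia, was 1.54 (SE 0.12, adjusted p = 3.42e-15) for *P2ry12* and 2.04 (SE 0.13, adjusted p = 4.62e-18) for *P2ry13*. For *Gpr34* it was 1.08 (SE 0.27, adjusted p = 0.00136), for *Tmem119* 1.13 (SE 0.12, adjusted p = 1.05e-10) and for *Slc2a5* 2.95 (SE 0.68, adjusted p = 4.50e-04). The LPS macrophages held 10 UMIs of *Slc2a5* in all, with 2 of 4 libraries at 0, and 37 of *Gpr34*. In saline macrophages the ratio to free RNA over the median of the 9 was 0.473 to 0.685 for *Slc2a5* and 0.753 to 0.851 for *Tmem119*, no more than the free RNA carries beside the other members. In saline macrophages named from markers alone it was 0.841 to 1 for *P2ry12*, 1 to 1.16 for *Siglech* and 0.999 to 1.11 for *Olfml3*. None of the differences of these genes is read as a loss in macrophages themselves, and their cause was not tested. With free RNA subtracted those of *Slc2a5* and *Tmem119* stayed called (3.18, adjusted p = 0.0444, and 1.38, adjusted p = 3.18e-09). The other way, *Cx3cr1* lost more in macrophages than in microglia, at a difference of -1.58 (SE 0.11, adjusted p = 1.20e-16), as did *Siglech*, at -1.20 (SE 0.15, adjusted p = 5.63e-09), and *Olfml3*, at -0.89 (SE 0.17, adjusted p = 2.09e-05), which became -1.81 with free RNA subtracted (adjusted p = 3.37e-07). *Crybb1* was not called, at 0.24 (SE 0.43, adjusted p = 0.730). Without LPS inhibitors replicate 1 the calls of *Gpr34* (0.81, adjusted p = 0.0549) and *Slc2a5* (2.06, adjusted p = 0.0973) were lost. With classes named from markers alone *Gpr34* was not called (0.90, adjusted p = 0.1297) and the other 7 kept their call and direction.

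In monocytes 5 of 9 genes were called in either direction, against 23.1% of all genes, and 4 of them lost less than in microglia, against 12.5% of all genes in that direction. The largest of these differences was that of *Slc2a5*, 2.93 (SE 0.42, adjusted p = 9.09e-06), and *P2ry13* followed at 2.65 (SE 0.24, adjusted p = 5.71e-09). *Gpr34* differed by 1.73 (SE 0.36, adjusted p = 8.53e-04) and *P2ry12* by 1.14 (SE 0.22, adjusted p = 3.68e-04). *Siglech* lost more in monocytes, at -0.85 (SE 0.25, adjusted p = 0.0153), a call that was lost without LPS DMSO replicate 1 (-0.68, adjusted p = 0.0899) and that grew to -3.94 with free RNA subtracted (adjusted p = 1.50e-04). *Tmem119*, *Olfml3* and *Crybb1* were not called, nor was *Cx3cr1* at -0.58 (SE 0.22, adjusted p = 0.0586), which passed without saline DMSO replicate 2 (-0.72, adjusted p = 0.0118) or LPS DMSO replicate 2 (-0.80, adjusted p = 0.0133). With free RNA subtracted the call of *Slc2a5* in monocytes was lost (2.17, adjusted p = 0.0557) and *Olfml3* turned to a called difference of -2.52 (adjusted p = 0.00303). *Slc2a5* and *P2ry13* had called differences above 2 log2 units in both classes. With classes named from markers alone the 4 positive differences kept their call, and that of *Siglech* did not (-0.71, adjusted p = 0.0702). The LPS monocytes held 28 UMIs of *Slc2a5* and 49 of *Gpr34*. In saline monocytes the ratio to free RNA over the median of the 9 was 0.779 to 1 for *Gpr34*. In those named from markers alone it was 0.917 to 1.15 for *P2ry12* and 0.941 to 1.40 for *Slc2a5*. It was 0.768 to 1.57 there for *P2ry13* and 0.777 to 0.924 for *Siglech*. None of the differences of these genes is read as a loss in monocytes themselves, and their cause was not tested.

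Other genes of the same pathways were read in microglia from lists that were chosen with earlier results of these data known. Beside the counts of each list, 35.5% of all genes tested were called lower and 30.2% higher. Of 31 other microglia identity genes 28 were called lower with LPS and 1 higher, with a median log2 fold change of -2.12 beside -0.18 for all genes. Among the largest changes were those of *Upk1b*, a uroplakin, at -5.33 (SE 0.16, adjusted p = 2.38e-10), and of the adhesion receptor *Adgrg1* at -4.79. Of 21 genes of the TGF-beta pathway and of microglial transcription factors 15 were lower and 1 higher (median -0.96). This list shares genes with the one before it, and was led by the receptor subunit *Tgfbr1* at -2.98 (SE 0.14, adjusted p = 3.33e-09) and the transcription factors *Cebpa* at -2.81 and *Sall1* at -2.41. All 15 reactive genes were higher (median 5.52), with the scavenger receptor *Marco* at 9.23 (SE 0.83, adjusted p = 8.46e-07), the acute-phase gene *Saa3* at 8.80 and the formyl peptide receptor *Fpr2* at 8.31.

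The partners and relatives of the receptors were called in both directions, as were all genes tested (35.5% lower and 30.2% higher). Nothing is read from the counts of these lists. Of 19 purine receptors, channels and nucleotide enzymes 7 were lower and 8 higher (median 0.13). The ectoenzyme *Cd38* rose by 4.86 (SE 0.18, adjusted p = 6.92e-10), the receptors *P2ry2* by 4.68 and *Adora2a* by 4.60. Of 6 tested receptors related to *P2ry12* in sequence 4 were lower and 1 higher. The proton sensor *Gpr65* was higher by 4.72 (SE 0.15, adjusted p = 2.48e-10), while *Gpr82* (-1.43) and *Gpr174* (-1.13) were lower. On the scale of UMIs per cell 1 of these 6 was lower. Of 12 ligands, sheddases and signaling partners 2 were lower and 4 higher, with the lysophosphatidylserine-forming *Pla1a* at 1.99 (SE 0.24, adjusted p = 1.05e-05), the adaptor *Hcst* at 1.31 and the lysophosphatidylserine-cleaving *Abhd12* at -1.16.

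Of 13 tested hexose carriers and first enzymes of hexose use 4 were lower and 5 higher, and the carriers *Slc2a6* at 2.86 (SE 0.18, adjusted p = 3.09e-08) and *Slc2a3* at 1.26 were higher where *Slc2a5* was lower. The hexokinase *Hk3* was lower, at -1.66, and on the scale of UMIs per cell 2 of the 13 were lower. Of 7 crystallin and olfactomedin relatives 3 were lower and 2 higher. *Cryba4*, a beta crystallin like *Crybb1*, was lower at -3.18 (SE 0.23, adjusted p = 1.31e-07), *Olfm1* was higher at 1.96 and *Cryab* was lower at -0.998. Of the 13 dissociation genes 4 were lower and 6 higher with LPS, with *Dusp1* at 3.70, *Hspa1b* at -3.32 and *Ier2* at 2.83. None of the genes named from these lists changed direction under the 3 scalings.

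The 6 genes whose pattern was nearest to the mean of the 9 were found by the Euclidean distance between centered log2 CPM over the 8 libraries, among 6395 genes with a mean of 20 CPM or more. They were *Npnt* (0.386), *Hacd4* (0.408), *Hpgd* (0.444), *Tspan18* (0.465), *Tmem204* (0.571) and *Gal3st4* (0.622). *Npnt*, an extracellular matrix protein, went from 47.6 to 1.44 CPM on average, and *Hpgd*, which breaks down prostaglandins, from 384 to 14.4. Of the members themselves *P2ry12* (0.386) and *P2ry13* (0.427) were the closest to the mean of the 9 and *Slc2a5* (4.85) was the farthest. The likeness rests on 8 libraries that fall into 2 groups.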

How the data were processed

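Single-cell libraries were made by PIPseq from CD45+ brain cells of 8 mice. The authors deposited raw UMI counts per gene and barcode, made with PIPseeker and STAR on GRCm39 with a GENCODE annotation, per their methods, and used Seurat 4 per the labels. No value was normalized. The 9 genes and the gene lists were chosen with earlier results of these data known.

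Cells with 800 to under 45000 UMIs, 250 to under 6500 genes, under 5% mitochondrial counts and a complexity (log genes over log UMIs) of at least 0.8 were kept. Scrublet's own threshold marked 1 to 34 cells per library, which was too few to have worked, so the 8% of cells with the highest scores were removed instead. Clusters were built with Scanpy 1.11.5 and leidenalg 0.10.2 (2000 variable genes without the 9, 30 components, 15 neighbors), in 39 clusters, and named from marker lists. The 7 clusters left unnamed held 2222 cells and were not used. Counts were summed per library and cell type and tested with edgeR 4.0.16 (R 4.3.3, TMM, filterByExpr, quasi-likelihood F-test, Benjamini-Hochberg adjustment over all genes tested) with *in vivo* and *ex vivo* treatment as terms. DESeq2 1.42.0 was an alternative. Differences between cell types were fitted with the mouse as a block. Shares and spread were computed on cells thinned to 1500 UMIs, with exact permutation tests over the 4 against 4 libraries. These tests were not blocked by batch or *ex vivo* treatment. Free RNA was taken from barcodes with 1 to 99 UMIs. The edgeR step and the thinning were tested on simulated data. The p-values measure the spread between mice.

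The replicate numbers are the batches of the labels. Deviations of same-numbered libraries correlated at 0.143 to 0.619 over the 6 pairs of groups, so the numbers were taken to pair the libraries, and a fit with the number as a block was an alternative. All 9 genes are named in each comparison, as are up to 3 genes per list with the largest absolute LPS change, the 6 genes nearest in pattern and the genes that lead a microglial cluster. 1 gene that this rule names is not reported here.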

Additional observations from a re-analysis of the deposited data

Results flagged for a closer look

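The 9 genes were looked at in 72 sets of 4 libraries (saline or LPS; level in microglia, share of microglia with a UMI, spread over microglia and level in free RNA), and in 14 sets 1 library lay apart by Dixon's ratio (above the 95% critical value for 4 samples). Chance gives about 1 in 20 sets.

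LPS DMSO replicate 2 stood apart in 9 of these sets and was the highest in each. In its free RNA *P2ry12* was at 498 CPM against 139.5 to 170.5 in the other LPS libraries (ratio 0.9136), *P2ry13* at 115.9 against 35.2 to 38.2 (0.9629) and *Gpr34* at 134.9 against 9.28 to 19.8 (0.9161). *Slc2a5* was at 93.7 CPM there against 3.54 to 13.9 (0.8847), *Olfml3* at 342 against 89.4 to 131.8 (0.8322) and *Crybb1* at 54.3 against 8.51 to 13.7 (0.8867). Within its microglia *Slc2a5* was seen in 0.515% of cells against 0.276 to 0.302% (0.8932), and *Crybb1* in 2.85% against 1.11 to 1.19% (0.9593), with *Crybb1* at 23.3 CPM against 8.11 to 8.70 (0.9614).

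In saline DMSO replicate 1 *Crybb1* was the lowest of the saline libraries, at 329 CPM in microglia against 473 to 501 (ratio 0.8369) and in 33.6% of cells against 44.1 to 45.8% (0.8672). In saline inhibitors replicate 1 the free RNA held the most *Olfml3*, 1783 CPM against 1356 to 1366 (0.9773), and the most *Crybb1*, 509.7 against 330.9 to 345 (0.9192). The share of microglia with *P2ry12* was 98.5% in saline inhibitors replicate 2 against 98.89 to 98.96% in the others (0.8423).

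The LPS change differed between microglia and macrophages for 8 of the 9 genes, against 31.3% of all genes in either direction, by edgeR with the mouse as a block. The log2 difference, macrophages minus microglia, was 1.54 for *P2ry12*, 2.04 for *P2ry13*, 1.08 for *Gpr34*, 1.13 for *Tmem119* and 2.95 for *Slc2a5*, and it was -1.20 for *Siglech*, -0.89 for *Olfml3* and -1.58 for *Cx3cr1*. Between microglia and monocytes it differed for 5 of the 9, against 23.1% of all genes, by 1.14 for *P2ry12*, 2.65 for *P2ry13*, 1.73 for *Gpr34*, 2.93 for *Slc2a5* and -0.85 for *Siglech*. Both classes held other clusters with LPS than with saline, so these differences are between classes as named, and their cause was not tested. In macrophages the calls of *Gpr34* and *Slc2a5* were lost without LPS inhibitors replicate 1 (edgeR, adjusted p = 0.0549 and 0.0973). In monocytes that of *Siglech* was lost without LPS DMSO replicate 1 (0.0899) and that of *Slc2a5* with free RNA subtracted (0.0557).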

How the results depend on the processing

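The LPS loss in microglia kept its direction and its call for all 9 genes in 24 alternatives (216 of 216 values), from -8.34 to -7.51 on the log2 scale for *Slc2a5* and from -1.92 to -1.39 for *Cx3cr1*. With the replicate number as a block, which the batches of the labels pair, no call on any of the 9 genes changed in the 3 comparisons in microglia or in the LPS tests in macrophages, monocytes and neutrophils, and the log2 change of *P2ry13* in microglia was -4.04 and that of *Gpr34* -6.44. The *ex vivo* and interaction comparisons stayed at 0 of 9 genes in every alternative (117 and 90 values).

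Calls on single genes moved in other comparisons. In monocytes the difference of *Olfml3* from microglia turned from 0.12 to -2.52 (adjusted p = 0.00303) with free RNA subtracted, and *Cx3cr1* passed there at -1.59 (adjusted p = 0.00811), while the called difference of *Siglech* grew from -0.85 to -3.94 (adjusted p = 1.50e-04) and that of *Olfml3* in macrophages from -0.89 to -1.81 (adjusted p = 3.37e-07). The same setting moved the LPS change of *Siglech* in monocytes from -3.13 to -6.21 and that of *Olfml3* from -3.83 to -6.54. With classes named from markers alone, chosen after seeing the data, 7 of 9 genes differed between macrophages and microglia and 4 of 9 between monocytes and microglia. The *P2ry13* loss in neutrophils was called at -1.11 (adjusted p = 0.00497) with cells named from markers alone. The spread over cells of *Gpr34* and *Crybb1* (exact permutation p = 0.0571) and of *Slc2a5* (0.0857) was not past the threshold without any 1 saline library, where groups of 3 and 4 remained. The LPS levels of *Slc2a5* rest on 123 to 145 UMIs per library, and those of *Crybb1* varied most between libraries for their size (12.1 ± 7.46 CPM, SD).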
